A study of Mus musculus with 2 samples.

Results

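Accessibility was examined at the genes of 10 proteins that process procollagen, taken as the rows of the deposited ATAC-seq peak table annotated to Serpinh1, P4ha1, P4ha2, P4ha3, Plod1, Plod2, Plod3, Fkbp10, Bmp1 or Pcolce. They numbered 33 of 63316 peaks and covered 9 of the 16934 genes with a peak, since no peak was annotated to Plod3. The cells were primary cardiac fibroblasts of mice. The first culture had received scrambled siRNA (SCR) and the second an siRNA against Piezo2 (siPiezo2), the gene of a stretch-activated ion channel, and both then received TGF-β for 24 h, at a dose that a legend of the study gives as 5 ng/ml. Each condition is 1 library without replicates, so no test between conditions was made and the intervals below cover counting error only. The methods place the study's mouse strains on a C57BL/6J background, and the age and number of the animals behind these cultures are not given in the sources used here. The design text of the series names a Tet3 knockout by Cre rather than an siRNA, and the methods start from minced tissue and use a kit other than that in the labels, so that the identity of both libraries rests on their titles, their treatment labels and that legend.

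ATAC-seq uses the Tn5 transposase to cut and tag open DNA, and reads collect at promoters, enhancers and other sites free of nucleosomes. It reports on DNA and not on transcripts or protein. Fibrillar collagen is made as procollagen in the endoplasmic reticulum, where prolines are hydroxylated by prolyl 4-hydroxylases (catalytic subunits P4ha1, P4ha2 and P4ha3) and lysines by lysyl hydroxylases (Plod1, Plod2 and Plod3). The chaperone Hsp47 (Serpinh1) and the prolyl isomerase FKBP65 (Fkbp10) assist folding of the triple helix and its passage out of the organelle. Outside the cell, Bmp1 removes the carboxy-terminal propeptide, a step that Pcolce enhances, and the trimmed molecules assemble into fibrils that lysyl oxidases crosslink. TGF-β is known to induce many of these genes in fibroblasts, and their products build the scar of the fibrotic heart.

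The promoter sequences of the chaperone and of the prolyl 4-hydroxylases are shown first, because P4ha3, the gene of lowest ratio between the libraries, had no peak at its promoter, while Serpinh1, P4ha1 and P4ha2 did. RefSeq entries on the assembly GRCm38.p6 were found for 7 of the 10 genes, and each sequence holds the 250 bases before the start of transcription, 5′ to 3′ on the strand of the gene. The peak coordinates follow another assembly, GRCm39, so a peak was placed on a promoter by its distance to the annotated start only. Capitals mark matches to ACGTG, the core of the site of hypoxia-inducible factors, and to GGGCGG, the GC box of Sp1, on either strand. The regions are chr7:99353240-99353489 on the minus strand for Serpinh1, chr10:59323046-59323295 on the plus strand for P4ha1, chr11:54100674-54100923 on the plus strand for P4ha2 and chr7:100285270-100285519 on the plus strand for P4ha3.
Serpinh1: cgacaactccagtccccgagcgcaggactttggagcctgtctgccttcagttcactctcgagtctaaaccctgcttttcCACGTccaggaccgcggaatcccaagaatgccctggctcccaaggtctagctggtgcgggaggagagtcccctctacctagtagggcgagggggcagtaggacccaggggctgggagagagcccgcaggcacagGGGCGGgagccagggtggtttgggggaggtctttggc
P4ha1: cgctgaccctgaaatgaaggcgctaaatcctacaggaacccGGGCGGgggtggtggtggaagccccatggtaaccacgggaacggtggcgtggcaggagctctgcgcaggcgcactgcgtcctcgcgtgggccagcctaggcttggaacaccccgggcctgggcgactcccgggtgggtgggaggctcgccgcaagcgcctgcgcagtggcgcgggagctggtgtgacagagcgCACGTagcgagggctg
P4ha2: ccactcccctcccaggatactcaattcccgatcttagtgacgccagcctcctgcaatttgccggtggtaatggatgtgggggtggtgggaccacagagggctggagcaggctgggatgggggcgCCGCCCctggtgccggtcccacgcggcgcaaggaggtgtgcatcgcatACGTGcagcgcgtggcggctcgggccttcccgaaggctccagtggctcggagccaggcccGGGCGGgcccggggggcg
P4ha3: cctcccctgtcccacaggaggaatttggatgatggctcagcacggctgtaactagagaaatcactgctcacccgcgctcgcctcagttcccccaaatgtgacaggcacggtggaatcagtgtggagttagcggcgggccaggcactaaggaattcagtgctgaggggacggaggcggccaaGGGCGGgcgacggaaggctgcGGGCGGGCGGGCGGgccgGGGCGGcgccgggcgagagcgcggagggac

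ACGTG was present in Serpinh1, P4ha1, P4ha2 and Plod3, which are 4 of the 7 promoters, against 16.6% of the 32851 mouse promoters of the same length. GGGCGG was present in 6 of the 7, all but Plod3, against 32.7%. The P4ha3 promoter held 5 copies of GGGCGG between positions -69 and -25, of which 3 form an overlapping run, and no ACGTG. The TEAD site GGAATG was in 0 of the 7 (12.6% of all promoters), the AP-1 site TGANTCA in 0 (6.75%), and the CArG box of SRF in 0 (1.47%). CCAAT occurred in Plod3 only (33.8% of all promoters) and TATAAA in Plod1 only (12.4%). The windows of P4ha1, P4ha3 and P4ha2 were rich in CpG dinucleotides, with 24, 23 and 21 against a median of 6 over all promoters. These are matches of letters within 250 bases, and binding was not measured.

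Over all peaks, windows of 2000 bp contained 4615335 SCR reads and 2754046 siPiezo2 reads (0.597 of SCR), and the median peak rested on 58 and 36 of them. Of 8 fibroblast genes used as markers, 6 had a peak within 1 kb of a start, among them Pdgfra, Tcf21 and Col1a1, while Lum and Thy1 had none. Within the same distance a peak was found at 1 of 8 cardiomyocyte genes (Actn2), 1 of 6 endothelial genes (Tek) and 1 of 6 mural cell genes (Myh11), while peaks at any distance were annotated to 3, 5 and 3 of them. The summed densities within 1 kb went from 397 to 356 for fibroblasts, from 15.4 to 16.9 for cardiomyocytes, from 25.8 to 28.1 for endothelium and from 32.6 to 23.9 for mural cells. The defining genes Myh6, Tnnt2, Pecam1, Cdh5, Ptprc and Rgs5 had no peak within 1 kb. Over peaks at any distance, log2 ratios of the mural genes were -1.16 for Rgs5 (127 against 56.0), -0.23 for Myh11 and 0.16 for Cspg4. Those of the endothelial genes were 0.70 for Cdh5 (47.7 against 78.0), 0.41 for Emcn, 0.0068 for Pecam1, -0.063 for Tek and -0.098 for Kdr. The cardiomyocyte genes Actn2, Tnnt2 and Ryr2 had -0.067, 0.0036 and 0.16, and the leukocyte genes Csf1r and Ptprc had -0.25 and -0.24. The part of other cell types in the results was not tested. Piezo2 itself gives no check of the knockdown here, since an siRNA acts on the transcript.

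Across the 9 genes with a peak, normalized read density summed over the gene was lower in siPiezo2 for 6, where 62.6% of all genes were lower, and higher for 3 (P4ha1, P4ha2 and Plod1), a split that each other scaling of the libraries kept, while all 9 were lower in reads without any scaling for depth. The log2 ratio of siPiezo2 to SCR, with 1 added to both densities, had a median of -0.24, where the median over all genes was -0.093 with quartiles of -0.29 and 0.10. P4ha3 was the only gene lower past 1.5-fold, which is 1 of 9 beside 6.21% of all genes, and 0 were higher past 1.5-fold beside 1.54%. The 95% exact binomial interval lay below 0 for P4ha3, Bmp1 and Plod2, which is 3 of 9 beside 15.8% of all genes, and above 0 for none of them, beside 4.68%. These 3 had the most peaks and reads of the set, and intervals narrow as reads increase. The set had a median of 3 peaks per gene and all genes 2, so those shares are not matched for reads. On the authors' scaling, intervals of P4ha1, P4ha2, Plod1, Serpinh1, Fkbp10 and Pcolce included 0, so that a difference was not detectable at this depth. Of 33 peaks, 4 (12.1%) were lower past 1.5-fold where 13.5% of all peaks were, and 0 were higher past 1.5-fold where 3.21% were. With median-of-ratios scaling the shares over all peaks became 8.35% lower and 6.27% higher. The shares of genes with a lower value and of peaks past 1.5-fold were therefore near the background.

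**Figure D1:**
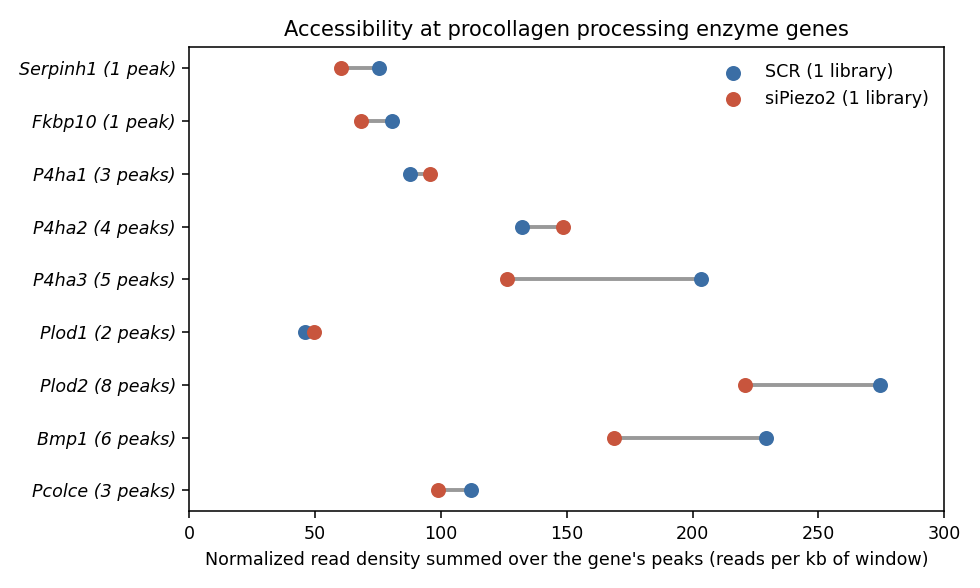
Normalized read density summed over the peaks of each gene (x axis, reads per kb of window) in the SCR library (blue) and the siPiezo2 library (red), 1 library each. P4ha3 went from 203 to 126, Bmp1 from 229 to 169 and Plod2 from 275 to 221, while P4ha1, P4ha2 and Plod1 were slightly higher in siPiezo2.

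Serpinh1 (ENSMUSG00000070436, chr7:98994596-99002446, minus strand) encodes the chaperone that binds the folded procollagen helix. Its only peak covered the start of transcription, at chr7:99002212-99002692, and was called in both libraries. The density there was 75.2 in SCR and 60.2 in siPiezo2 from 198 and 90 reads, a log2 ratio of -0.32 (interval -0.70 to 0.045). With recovered reads scaled to equal totals it was -0.39, and the interval then lay below 0 (-0.77 to -0.026). This was among the denser promoters of the table, above 91.1% of promoter peaks by mean density. The peak reached from 246 bases before to 234 bases after the start and so took in nearly all of the sequence shown, including the ACGTG match at -171. A further 4 intergenic peaks lay nearest to Serpinh1, between 2740 and 12077 bp upstream. The strongest of them, at 7179 bp, had densities of 134 and 133 from 374 and 189 reads, a log2 ratio of -0.0018 (interval -0.26 to 0.25), and the other 3 had log2 ratios between -0.31 and -0.25.

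Fkbp10 (ENSMUSG00000001555, chr11:100306523-100315650) encodes a peptidyl-prolyl isomerase that acts with Hsp47 on procollagen and, when mutated, causes brittle bones. Its only peak, at chr11:100306198-100306573 and 138 bp before the start, was called in SCR alone. The density was 80.6 in SCR and 68.0 in siPiezo2 from 214 and 101 reads, a log2 ratio of -0.24 (interval -0.60 to 0.10). The window of this peak overlaps that of P3h4, a neighbour on the opposite strand whose product belongs to the lysyl hydroxylase complex. The 5′ UTR peak of P3h4 had densities of 86.6 and 69.0 and a log2 ratio of -0.33 (interval -0.68 to 0.013), and reads in the overlap count toward both genes.

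The catalytic subunits of prolyl 4-hydroxylase differed among themselves. P4ha1 (ENSMUSG00000019916, chr10:59159118-59209126), the main subunit in most cells, had 3 peaks whose densities summed to 87.5 in SCR and 95.5 in siPiezo2, from 215 and 150 reads. The log2 ratio was 0.12 (interval -0.18 to 0.43). Its promoter peak, from 265 bases before to 232 bases after the start, was called in both libraries and had densities of 46.8 and 56.2 (log2 ratio 0.26, interval -0.15 to 0.67). The peaks in intron 1 were weaker, at 16.2 against 17.6 (log2 ratio 0.11, from 37 and 29 reads) and 24.5 against 21.7 (log2 ratio -0.17, from 58 and 35 reads). Neither had an interval that left out 0.

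P4ha2 (ENSMUSG00000018906, chr11:53991750-54022478), a subunit linked to fibrotic and hypoxic matrix production, had 4 peaks with summed densities of 132 in SCR and 149 in siPiezo2 from 329 and 232 reads. Its log2 ratio of 0.17 (interval -0.081 to 0.41) was the highest of the 9 genes over all peaks on the authors' scaling. That order did not hold under several alternatives, where P4ha1, Plod1, Plod2 or Pcolce was higher. Its interval was the only one to lie above the median of all genes (-0.093), but with the widening described further on (-0.21 to 0.54) it included that median. With median-of-ratios scaling the counting interval was 0.059 to 0.55 and with equal total density 0.0072 to 0.50, above 0 in both. The promoter peak, from 105 bases before to 95 bases after the start, had densities of 18.8 and 22.7 (log2 ratio 0.26). The densest peak lay in the gene body at chr11:54003677-54004154, was called in both libraries and had densities of 56.1 and 64.9 from 146 and 98 reads (log2 ratio 0.21, interval -0.17 to 0.59). A peak in intron 6 was the highest at 0.27 (27.5 against 33.3) and one in intron 9 the lowest at -0.10 (29.7 against 27.6). An intergenic peak 9449 bp upstream of P4ha2 went the other way, with 26.7 in SCR and 16.7 in siPiezo2 (log2 ratio -0.64, interval -1.38 to -0.0036).

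P4ha3 (ENSMUSG00000051048, chr7:99934727-99968906) encodes the least studied of the catalytic subunits. It had 5 peaks, all in introns and all lower in siPiezo2, of which 4 were called in SCR alone, and none at its promoter, the nearest being 2868 bp past an annotated start. Of all intron peaks 66.2% were lower, and of all peaks called in SCR alone 73.1%. The 5 densities summed to 203 in SCR and 126 in siPiezo2 from 503 and 197 reads, 62.1% of SCR, and the log2 ratio of -0.68 (interval -0.93 to -0.45) was the lowest of the set. Only 4.26% of all genes lay at or below it. Both peaks of intron 1, at chr7:99937483-99937751 and chr7:99938022-99938222, have overlapping windows and had log2 ratios of -0.58 (27.5 against 18.0) and -0.52 (28.2 against 19.3). The densest, in intron 5 at chr7:99951529-99951967, was called in both libraries with densities of 73.6 and 50.5 from 192 and 76 reads (log2 ratio -0.53, interval -0.95 to -0.15). The lowest, in intron 7 of 12 at chr7:99958401-99958762, had 44.7 and 19.1 from 109 and 30 reads, a log2 ratio of -1.19 (interval -1.86 to -0.63), and the last, in intron 8, had 29.4 and 19.3 (log2 ratio -0.58). The 5 peaks had a median of -0.58, while the 7 peaks of P4ha1 and P4ha2 had a median of 0.21 with 5 of them higher in siPiezo2. Of all peaks, 63.7% were lower.

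**Figure D2:**
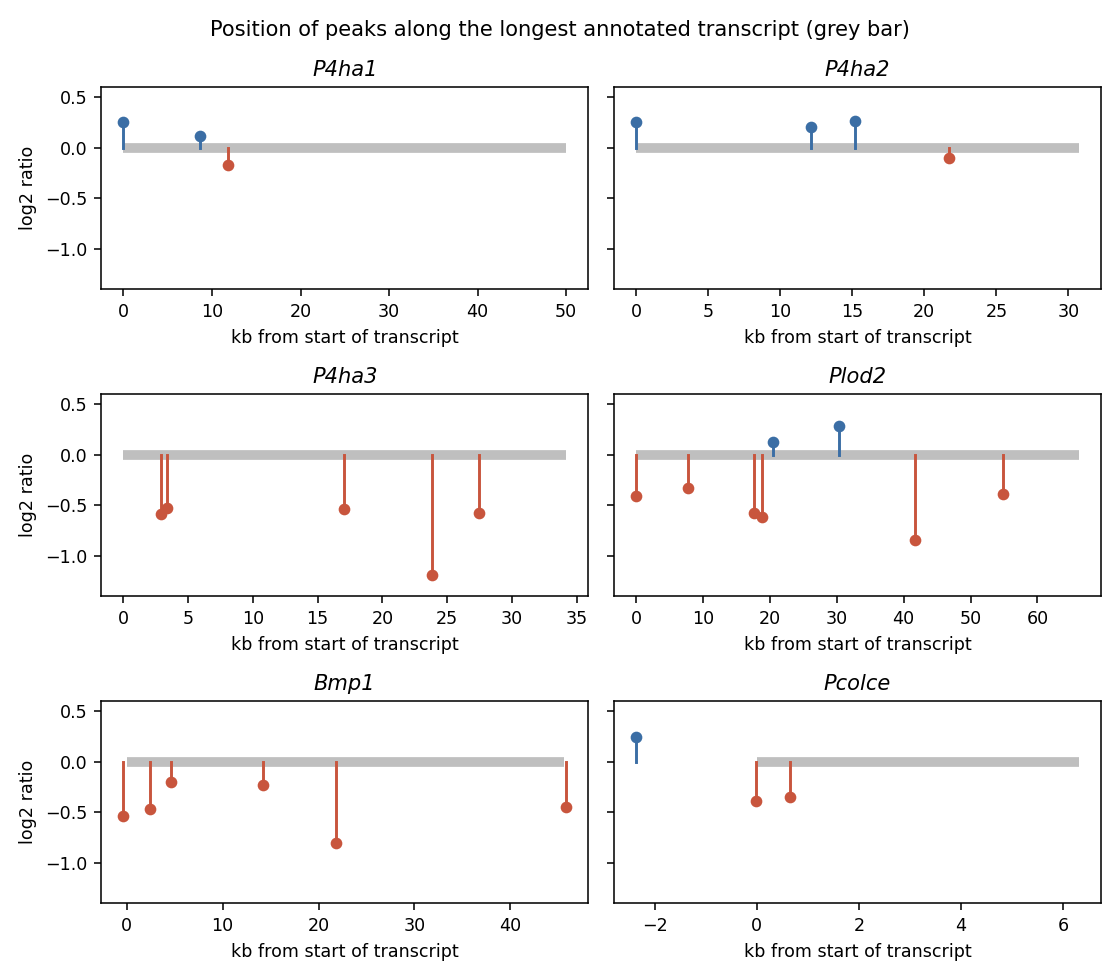
Peaks of the 6 genes with 3 or more, by distance of the summit from the start of the longest annotated transcript (x axis, kb; grey bar, extent of the transcript) and log2((siPiezo2 + 1)/(SCR + 1)) of normalized density (y axis; blue, higher in siPiezo2; red, lower). The 5 peaks of P4ha3 and the 6 of Bmp1 point down along the whole gene, those of P4ha2 mostly up, and Plod2 held both directions from -0.84 to 0.29. Of all peaks, 63.7% were lower.

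Among the lysyl hydroxylases, Plod1 (ENSMUSG00000019055, chr4:147994210-148021224, minus strand), which acts mainly on helical lysines, had 2 peaks with summed densities of 45.9 in SCR and 49.5 in siPiezo2 from 109 and 80 reads. The log2 ratio was 0.11 (interval -0.32 to 0.54). The peak at the 5′ UTR had 27.5 and 25.6 (log2 ratio -0.096) and that in intron 14 had 18.4 and 23.9 (log2 ratio 0.36, interval -0.29 to 1.04), the highest among all 33 peaks. Both rested on few reads and were called in SCR alone.

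Plod2 (ENSMUSG00000032374, chr9:92424276-92490481) hydroxylates lysines in the telopeptides of collagen, which gives rise to the stable crosslinks found in fibrotic tissue. It carried 8 peaks, more than any other of the set, and 5.75% of all genes had at least as many. The gene's total was 275 in SCR and 221 in siPiezo2 from 672 and 348 reads, a log2 ratio of -0.31 (interval -0.51 to -0.13). The peak at the 5′ UTR, chr9:92423989-92424594, was called in both libraries and had 48.4 and 36.2 (log2 ratio -0.41, interval -0.90 to 0.047). The lowest lay in intron 4 at chr9:92465686-92466259, with 47.9 and 26.3 from 119 and 41 reads (log2 ratio -0.84, interval -1.42 to -0.34). The highest, at chr9:92454380-92454881, lay 1011 bp before the start of a shorter transcript within the gene and had 38.9 and 47.7 from 98 and 74 reads (log2 ratio 0.29, interval -0.16 to 0.75), and by mean density it was the densest peak of the gene. In all, 6 of the peaks were lower and 2 higher, where 63.7% of all peaks were lower. The neighbouring intron 1 peaks at chr9:92442902-92443142 (log2 ratio -0.62) and chr9:92444503-92444869 (log2 ratio 0.12) pointed in opposite directions although their windows overlap.

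Beyond the gene, 6 intergenic peaks lay nearest to Plod2. A pair at chr9:92494656-92495156 and chr9:92495301-92495582 had log2 ratios of -0.63 (47.3 against 30.2) and -0.81 (46.8 against 26.2), and the intervals of both were below 0. Their windows overlap. The other 4 lay between -0.14 and 0.38, with intervals that included 0.

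Plod3, whose product also has glycosyltransferase activity and is needed to assemble basement membranes, had no peak under its own symbol. Its start lies 118 bp from that of a Znhit1 transcript on the opposite strand, by the GRCm38 annotation. The peak at that Znhit1 start, chr5:137015593-137015930, reaches 175 bp past it on the side of Plod3 and so covers the Plod3 start if the spacing is the same in GRCm39, which was not checked. Its densities were 44.5 in SCR and 48.0 in siPiezo2 from 113 and 74 reads, a log2 ratio of 0.11 (interval -0.33 to 0.54). A second Znhit1 peak, at chr5:137016202-137016521, had 47.4 and 50.2 (log2 ratio 0.080, interval -0.35 to 0.51). A shared promoter of this kind cannot be told apart into its genes by accessibility.

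Bmp1 (ENSMUSG00000022098, chr14:70711998-70757589, minus strand) encodes the metalloproteinase that removes the carboxy-terminal propeptide of fibrillar procollagens and also cuts the lysyl oxidase precursor. All 6 of its peaks were lower in siPiezo2, beside 63.7% of all peaks, but 5 of them were called in SCR alone, a class in which 73.1% of all peaks were lower. Together they had 229 in SCR and 169 in siPiezo2 from 564 and 265 reads, 73.6% of SCR, a log2 ratio of -0.44 (interval -0.66 to -0.23). The densest promoter peak, chr14:70757689-70758242, had 43.1 and 29.4 from 107 and 46 reads (log2 ratio -0.54, interval -1.08 to -0.041). The lowest lay in intron 8 at chr14:70735543-70735892 with 36.0 and 20.2 from 87 and 32 reads (log2 ratio -0.81, interval -1.47 to -0.24). The highest lay in intron 1 at chr14:70752803-70753134, with 47.8 and 41.5 from 121 and 64 reads (log2 ratio -0.20, interval -0.66 to 0.24), and it was the only peak of Bmp1 called in both libraries as well as the densest. The other 3, in intron 1, at an internal promoter and just past the gene, had log2 ratios of -0.47, -0.22 and -0.44.

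Pcolce (ENSMUSG00000029718, chr5:137603365-137609670, minus strand) encodes the enhancer of that cleavage. Its 3 peaks, all of the promoter class, summed to 112 in SCR and 98.7 in siPiezo2 from 277 and 155 reads, a log2 ratio of -0.18 (interval -0.48 to 0.11). The peak furthest upstream, chr5:137611890-137612179, was called in both libraries and was higher, at 29.0 and 34.7 (log2 ratio 0.25, interval -0.28 to 0.78). The peak at the main start, chr5:137609576-137609809, had 40.4 and 30.6 (log2 ratio -0.39), and that at an inner start, chr5:137608898-137609132, had 42.5 and 33.3 (log2 ratio -0.34). The windows of these latter peaks overlap, so they share reads.

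**Figure D3:**
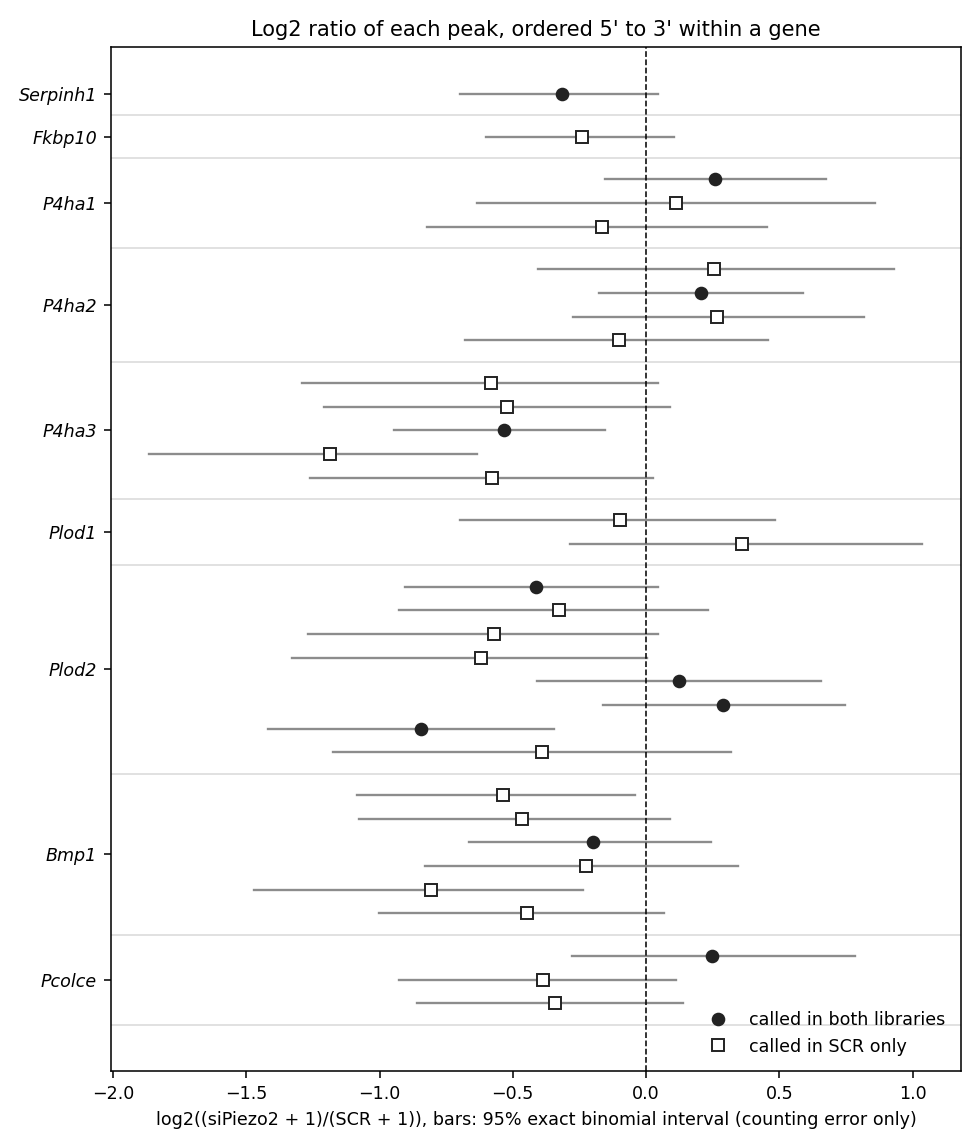
Log2((siPiezo2 + 1)/(SCR + 1)) of normalized density for each of the 33 peaks (x axis), grouped by gene and ordered 5′ to 3′, with 95% exact binomial intervals for counting error; filled circles, called in both libraries; open squares, called in SCR only. Intervals lay wholly below 0 for 5 of the 33 peaks, in P4ha3, Plod2 and Bmp1, beside 12.6% of all peaks, and above 0 for none of them, beside 4.03%.

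Real variation between libraries is wider than counting error. Among 19971 peaks called in both libraries with 66 to 315 reads, as the peaks of the set had, the variance of reads was 2.28 times what counting allows. This ratio takes in any effect of the siRNA, and peaks called in SCR alone, 23 of the 33, did not enter it. With intervals widened by 1.51, the square root of that ratio, chosen after the data were seen, P4ha3 ranged from -1.06 to -0.33, Bmp1 from -0.77 to -0.12 and Plod2 from -0.60 to -0.030. On the authors' scaling these 3 widened intervals lay below 0 and those of the other 6 included it. Reads in overlapping windows of the same gene were counted for each peak, which narrows the intervals of Plod2, P4ha3 and Pcolce. With separate windows only, the log2 ratio was -0.28 for Plod2 and -0.71 for P4ha3, and no interval was computed there. With its densest peak only, which is also its only one called in both libraries, Bmp1 had an interval that included 0 without widening. The widened interval of Plod2 included the median of all genes, and it reached above 0 with equal total density (-0.51 to 0.059) and with recovered reads of equal total (-0.49 to 0.080). With median-of-ratios scaling the interval of Plod2 included 0 even without widening (-0.37 to 0.014), and that of Bmp1 did so once widened (-0.63 to 0.018). P4ha3 kept a widened interval below 0 under each scaling, from -0.92 to -0.19 with median-of-ratios. This widening stands for differences between peaks of the same libraries and does not replace a second culture.

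Peak class and calling moved with the values. Of the 33 peaks, 20 lay in introns, with a median log2 ratio of -0.43 where all intron peaks had -0.17. The promoter class within 1 kb of a start held 9, with -0.24 where all peaks of that class had -0.030. With the 5′ UTR peaks of Plod1 and Plod2, 11 lay within 1 kb of a start. The 4 peaks lower past 1.5-fold (P4ha3 intron 7, Plod2 introns 1 and 4, Bmp1 intron 8) all lay in introns, where 14.8% of all intron peaks and 5.86% of all promoter peaks were that low. There were 23 peaks (69.7%) called in SCR alone, beside 64.0% of all peaks, and 0 in siPiezo2 alone, beside 2.16%. These 23 had a median of -0.39 where all such peaks had -0.23, whereas the 10 called in both libraries had -0.038 where all such peaks had 0.0025, with 5 lower and 5 higher. SCR was also the deeper library, and the part of depth in these values was not tested. Among peaks called in both libraries, 2 of the 10 had an interval below 0, in P4ha3 intron 5 and Plod2 intron 4, beside 8.88% of all peaks called in both.

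The remaining genes of collagen maturation were described for comparison. Of 19 endoplasmic reticulum partners of the enzymes, 18 had a peak, with a median log2 ratio of -0.13. The lowest were Fkbp11, an isomerase of secretory cells, at -0.58 (29.4 against 19.3, interval -1.26 to 0.027), and Colgalt2, a collagen galactosyltransferase, at -0.56 (64.5 against 43.6, interval -0.99 to -0.15). The highest were the chaperones Hsp90b1 at 0.52 (95.6 against 138, interval 0.25 to 0.80) and Hspa5 at 0.34 (86.4 against 110, interval 0.050 to 0.64).

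Of 13 genes for the export of procollagen, 11 had a peak and the median was -0.025. The lowest were Mbtps2, a protease that activates membrane-bound transcription factors, at -0.48 (26.5 against 18.7, interval -1.18 to 0.15), and Creb3l1, such a factor, at -0.26 (434 against 364, interval -0.41 to -0.11). The highest were Sar1b, a GTPase of the COPII coat, at 0.79 (15.9 against 28.1, interval 0.17 to 1.49), and Mia3, the receptor that loads procollagen into carriers, at 0.22 (70.3 against 82.0, interval -0.12 to 0.56). Of 11 further propeptide proteases and enhancers, 9 had a peak and the median was -0.047. Pcsk6 (-0.31, 217 against 174, interval -0.53 to -0.10) and Furin (-0.26, 43.2 against 36.0, interval -0.75 to 0.22), both proprotein convertases, were the lowest. Pcolce2, the homologue of Pcolce, was the highest at 0.90 from 23 and 34 reads (10.4 against 20.3, interval 0.16 to 1.80), followed by the amino-propeptidase Adamts14 at 0.52 (56.5 against 81.4, interval 0.17 to 0.88).

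Over these 3 lists together, 38 of 43 genes had a peak, with a median of -0.039, and the interval lay below 0 for 5 (beside 15.8% of all genes) and above 0 for 5 (beside 4.68%). On the authors' scaling, the substrates and most of the crosslinking enzymes had values below that median. Of 11 fibrillar collagen genes, 10 had a peak and all 10 had a log2 ratio below 0 (7 with median-of-ratios scaling, where Col5a1, Col5a3 and Col24a1 were above it), beside 62.6% of all genes. Their median was -0.31, with intervals below 0 for 5, beside 15.8% of all genes. They ranged from Col5a2 at -0.68 (212 against 132, interval -0.92 to -0.45) and Col11a1 at -0.59 (77.3 against 51.0) to Col5a3 at -0.11 (125 against 116) and Col5a1 at -0.040 (312 against 304). Of 5 lysyl oxidase genes the median was -0.33, from Lox at -1.06 and Loxl4 at -0.43 (56.1 against 41.3) through Loxl1 at -0.26 (333 against 278) to Loxl2 at 0.74 (86.7 against 145, interval 0.47 to 1.02). The value of P4ha3 was thus close to that of Col5a2, and P4ha1, P4ha2 and Plod1 lay above every fibrillar collagen gene.

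**Figure D4:**
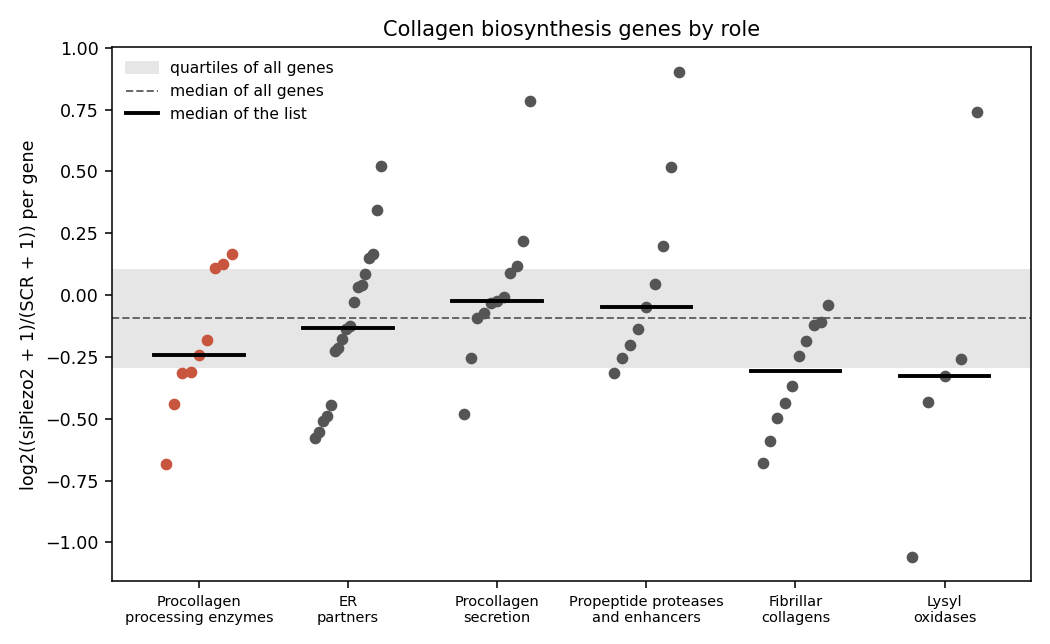
Log2((siPiezo2 + 1)/(SCR + 1)) of summed density per gene (y axis) for the procollagen processing enzymes (red) and 5 lists of related genes (x axis); black bars, list medians; grey band and dashed line, quartiles and median of all 16934 genes. On the authors' scaling the processing enzymes had a median of -0.24, between the -0.039 of the 38 other maturation genes in the middle lists and the -0.31 of the fibrillar collagens. The order against the collagens reversed with recovered reads of the same total (-0.20 against -0.15) and with recovered reads and no scaling (-0.95 against -0.88).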

How the data were processed

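ATAC-seq libraries of TGF-β-treated murine cardiac fibroblasts, 1 with scrambled siRNA and 1 with siRNA against Piezo2, were compared from 1 deposited table of peaks. The authors trimmed adapters, aligned reads with BWA (0.7.12 in the submitters' processing notes), removed duplicates with Picard and called peaks with MACS2 at q = 0.05. The deposited signal values are read densities per peak, in reads per kb of a 2000 bp window, which the authors scaled with a linear fit over the peaks called in both libraries. The table's annotation supplied gene symbols, peak classes and distances to a start. The labels name mm10, but the table's gene positions and scaffolds match GRCm39, and positions are printed unchanged. Its columns of the authors' ratios and p-values were not used.

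Each peak's value here is log2((siPiezo2 + 1)/(SCR + 1)) of its densities, and that of a gene uses densities summed over its peaks. Values under 0.66 or above 1.5 of SCR were counted. Whole reads per window were recovered for 100% of peaks (within 0.05 of a read), by finding the slope and intercept of the fit that made them whole, and gave the 95% Clopper-Pearson intervals. PCR duplicates and reads shared by overlapping windows aside, these cover counting error only. The code was tested on simulated data.

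The members and lists were chosen with earlier results of these data known. All member genes were named, each with its densest promoter peak and its lowest and highest peak of at least 50 reads, and for each list the 2 lowest and 2 highest genes of at least 50 reads. Alternatives covered the pseudocount (0.1), the scaling, the fold (2), removal of the weakest 25% of peaks and the choice of peaks. Widened intervals, the removal of genes with 1 peak, the addition of intergenic peaks and intervals under each scaling were added after the data were seen. Calculations ran in Python 3.11.15 with scipy 1.17.1, pandas 2.3.3 and numpy 2.4.6, and plots in matplotlib 3.10.9. Promoters came from RefSeq. The leukocyte marker list as a whole is not reported here.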

Additional observations from a re-analysis of the deposited data

How the results depend on the processing

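No paired analysis was possible because there was 1 library per condition. Of 93 values of the 9 genes under alternatives, 80 stayed within the gene's counting interval, 12 left it and 1 reversed, Plod2, at 0.29 with its densest peak only. Part of the 80 could not differ, because the alternative left the gene's peaks unchanged. This held for choices of peaks at Serpinh1 and Fkbp10, with 1 peak each, and for some choices at other genes. Bmp1 went from -0.44 to -0.20 with its densest peak only or with peaks called in both libraries only, and its interval then included 0. Values whose interval included 0 also changed sign: P4ha1, P4ha2 and Plod1 with recovered reads and no scaling (-0.52, -0.50 and -0.44), Plod1 with its densest peak only (-0.096), P4ha1 with intergenic peaks (-0.14) and Pcolce with peaks called in both libraries only (0.25). With median-of-ratios scaling the median over the genes was -0.10 and over their peaks -0.19, and it was 0.098 over the other maturation genes. The median of all genes was then 0.043, and 8.35% of all peaks were lower and 6.27% higher past 1.5-fold, against 13.5% and 3.21%. With densities of the same total the other maturation genes had a median of 0.048, and with recovered reads of the same total 0.022. In the latter, 1 peak of the set was higher past 1.5-fold, beside 8.35% of all peaks. With recovered reads and no scaling, which carries the difference in depth, the medians were -0.95, -1.01 and -0.72 (genes, peaks, other maturation genes), and the median of all genes was -0.71. There, 24 of the 33 peaks were lower past 1.5-fold, beside 60.9% of all peaks. With the densest peak only, the median over peaks was -0.20. With promoter peaks only, the other maturation genes had 0.084 and 0 peaks of the set were lower past 1.5-fold, beside 5.86% of all promoter peaks. With peaks called in both libraries only, the median over peaks was -0.038, that of the other maturation genes 0.022, and 1 peak was lower past 1.5-fold, beside 5.36% of all such peaks. At a fold of 2, 1 peak was lower, and the share over all peaks at that fold was not computed. With intergenic peaks added, 8 of 48 were lower past 1.5-fold, beside 13.5% of all peaks. The causes of these shifts were not tested. Under every alternative run, the median of the set lay below that of all genes, by a log2 difference of -0.15 on the authors' scaling. This shrank to -0.084 with separate windows only (4 of 8 genes below the median of all genes), to -0.088 without genes of 1 peak (4 of 7) and to -0.088 with intergenic peaks added (7 of 9). Depth limits single peaks, since 41 reads was their median in siPiezo2.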

Other observations

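Of the 15 intergenic peaks nearest to Serpinh1, P4ha1, P4ha2 or Plod2, 12 were lower in siPiezo2, beside 66.3% of all peaks without a gene, and 4 were lower past 1.5-fold, beside 16.6%. Their median log2 ratio was -0.25, and that of all peaks without a gene was -0.17. At P4ha1 the 4 such peaks went in both directions. A peak 37536 bp upstream had densities of 27.4 in SCR and 13.0 in siPiezo2 from 64 and 21 reads (log2 ratio -1.02, 95% exact binomial interval -1.86 to -0.34), and one 12302 bp upstream, called in both libraries, had 56.2 and 37.8 from 143 and 58 reads (log2 ratio -0.56, interval -1.04 to -0.13). The peak 30568 bp upstream was higher in siPiezo2 (27.1 against 33.9, log2 ratio 0.31, interval -0.22 to 0.86), and that at 26890 bp had a log2 ratio of -0.14 (interval -0.65 to 0.34). Adding all 4 turned the log2 ratio of P4ha1 from 0.12 to -0.14. The assignment of such peaks to a gene by distance was not tested.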
